A study of Mus musculus with 4 samples.

Results

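The interferon receptors and the Janus kinases were examined in J774.1 cells, a mouse monocyte-macrophage line, after 4 hours with a proteasome inhibitor. The group holds 10 genes named by symbol. They are *Ifnar1* and *Ifnar2*, the receptor chains for type I interferon, *Ifngr1* and *Ifngr2*, the receptor chains for IFN-γ, the kinases *Jak1*, *Jak2*, *Jak3* and *Tyk2*, and the phosphatases *Ptpn2* and *Ptpn6*. Probes were matched to these symbols through the RefSeq transcript accession that the array files give, which found 15 probes of 39429 and all 10 genes of 20133 that could be named. Cells of 1 culture each received DMSO as solvent control, or MG132, epoxomicin or ONX0914 at 1 µM, and their RNA was hybridized to 4 arrays, 1 per condition. The treatment label of the ONX0914 array reads ONX-0912, its title gives ONX-5, and the treatment protocol and the study name ONX0914, as is done here. No sample was labelled as given interferon, so the arrays show the RNA of the receiving machinery in cells without added ligand.

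Type I interferon binds a receptor made of the IFNAR1 and IFNAR2 chains, which carry TYK2 and JAK1 on their inner ends. IFN-γ binds IFNGR1, and the complex signals with IFNGR2 through JAK1 and JAK2. The kinases phosphorylate the receptor tails and then the STAT factors, which enter the nucleus and switch on interferon-stimulated genes. JAK3 works with the common γ chain of interleukin receptors rather than with interferon receptors. PTPN2, also called TC-PTP, and PTPN6, also called SHP-1, are tyrosine phosphatases that act on this signaling. Macrophages are a classic target of IFN-γ. MG132 is a peptide aldehyde, and epoxomicin and ONX0914 are peptide epoxyketones, of which ONX0914 was made to favour the β5i subunit of the immunoproteasome.

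With 1 array per condition there were no replicates, no test could be made and no p-value is given. The precision is limited by the number of arrays. The scanner software gave each member signal an error of 10.0% to 18.0%, which makes 0.20 to 0.30 on the log2 scale for a difference from DMSO. For the probes that represent the genes this error was 10.0% on every array. It is thus a near-constant allowance and not a spread seen among spots. The spots of probes printed 10 times differed by a median SD of at most 0.0615 on the log2 scale. Neither figure holds the spread between cultures. All comparisons with DMSO used the same DMSO array, so an error on it would appear in each of them. The signals printed below are the background-subtracted intensities of each array before scaling, in arbitrary units, and the log2 differences were taken after each array's 75th percentile, 1453 to 1683 units, had been set equal. A signal on a bulk array cannot tell fewer cells that hold an RNA from less of it per cell.

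The label of the cells was set against marker genes. All 7 macrophage markers with a named probe, among them *Csf1r*, *Itgam* and *Cd14*, were well above background on the 4 arrays, with a summed scaled signal of 302477 to 354483 units. Of the T, B and NK cell markers, 1 in each list of 4, 4 and 3 was well above background (*Cd3e*, *Cd79b* and *Prf1*), and *Cd3d*, *Cd3g*, *Cd247*, *Cd79a*, *Ms4a1*, *Ncr1* and *Klrb1c* were on no array. The summed scaled signal was 615 to 919 units for the T cell list, 57.2 to 68.7 for the B cell list and 724 to 871 for the NK cell list. The endothelial markers *Pecam1*, *Cdh5* and *Kdr* were all above background (5366 to 7537 units). Most of this sum was *Kdr*, at 5979 units with DMSO, against 151 for *Pecam1* and 36.1 for *Cdh5*. Among the fibroblast markers (104 to 139 units) *Col1a2* was above background on all arrays and *Pdgfra* with DMSO and epoxomicin, and *Col1a1* and *Col3a1* were not on any array. The epithelial list ran from 21.2 units with DMSO to 166 with epoxomicin, with *Krt8* and *Krt18* above background only on inhibitor arrays and *Epcam* and *Cdh1* on none. The part of these markers in the differences described here was not tested.

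All parts of both interferon receptors and all 4 kinases were measured in DMSO-treated cells. Each of the 15 probes was well above background on each of the 4 arrays, none was saturated, and their signals lay between 36.4 and 37194 units. Messages for *Ifnar1*, *Ifngr1*, *Ifngr2* and *Ptpn6* were lower with all 3 inhibitors, and those for *Jak2* and *Ptpn2* were higher with all 3. *Ptpn2* was higher by only 0.25 to 0.52 on the log2 scale, and 18.4% to 20.5% of all genes were higher still. Those for *Ifnar2*, *Jak1*, *Jak3* and *Tyk2* lay within 0.5 of DMSO, with *Tyk2* at -0.31 with MG132 and -0.46 with epoxomicin. *Ifnar1*, *Ifngr1*, *Ifngr2* and *Ptpn6* were at least 2-fold lower with MG132, against 3.65% of the 13769 genes compared. The same 4 were with epoxomicin, against 4.49% of 13869 genes. None of the 10 was at least 2-fold lower with ONX0914, where 1.41% of 13793 genes were. No member was higher by 2-fold or more on any inhibitor array, against 7.24%, 8.41% and 3.27% of all genes with MG132, epoxomicin and ONX0914. At a 1.5-fold threshold the same 4 genes were lower with each inhibitor, beside 12.9%, 14.5% and 5.21% of all genes in the same order. With ONX0914 *Ifnar1* passed it by its brightest probe alone (1.58-fold), and its other probes were 1.41- and 1.23-fold lower. *Jak2* was the gene at least 1.5-fold higher with MG132 and with epoxomicin, and no member was with ONX0914, beside 14.9%, 16.4% and 7.59% of all genes. The median of the 10 log2 differences was -0.26, -0.36 and 0.0065 with MG132, epoxomicin and ONX0914, and that of all genes compared was -0.022, -0.043 and -0.0080. Of all 2-fold differences on the MG132 array 66.5% were higher, and this share became 55.3% with arrays set to equal medians, 45.0% without scaling and 83.0% with *Hprt* as the only scale, while with epoxomicin it went from 65.2% to 80.0% with *Hprt*. None of these scalings turned the direction of *Ifnar1*, *Ifngr1*, *Ifngr2*, *Ptpn6*, *Jak2* or *Ptpn2*.

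**Figure D1:**
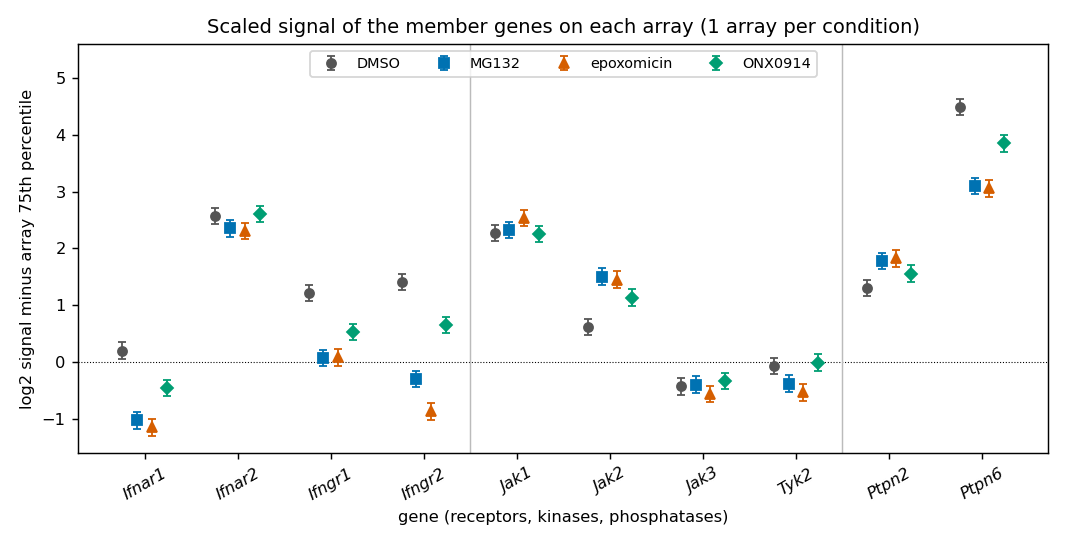
Scaled signal of the probe that represents each gene on the DMSO, MG132, epoxomicin and ONX0914 arrays (log2 of the signal minus the 75th percentile of its array; bars are the scanner software's error, 1 array per condition). The DMSO point is the highest of the 4 for *Ifnar1*, *Ifngr1*, *Ifngr2* and *Ptpn6* and the lowest for *Jak2* and *Ptpn2*; heights of different genes are not comparable.

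The promoters of the type I receptor chains, of *Ifngr2* and of *Jak2* are printed here because *Ifnar2* lay near its DMSO level while its neighbours *Ifnar1* and *Ifngr2* were lower and *Jak2* was higher. Each runs from 250 bases before to 50 bases after the annotated start of transcription, 5′ to 3′ in the direction of the gene, and comes from RefSeq on GRCm38.p6. Capitals mark matches to the STAT-binding GAS motif TTCNNNGAA, which reads the same on both strands.

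Ifnar1, chr16:91484965-91485264, plus strand: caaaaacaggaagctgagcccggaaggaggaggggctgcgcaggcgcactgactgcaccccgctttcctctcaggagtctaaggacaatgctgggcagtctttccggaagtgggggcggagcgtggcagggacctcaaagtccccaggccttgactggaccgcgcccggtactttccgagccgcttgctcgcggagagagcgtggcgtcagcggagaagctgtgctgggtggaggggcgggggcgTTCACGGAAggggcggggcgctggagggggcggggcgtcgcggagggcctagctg
Ifnar2, chr16:91372533-91372832, plus strand: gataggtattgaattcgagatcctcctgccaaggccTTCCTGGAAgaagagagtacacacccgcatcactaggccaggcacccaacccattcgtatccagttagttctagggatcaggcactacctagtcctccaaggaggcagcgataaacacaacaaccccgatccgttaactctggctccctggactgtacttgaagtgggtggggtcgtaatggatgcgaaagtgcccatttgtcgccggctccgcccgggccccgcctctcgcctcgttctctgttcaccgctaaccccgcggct
Ifngr2, chr16:91546809-91547108, plus strand: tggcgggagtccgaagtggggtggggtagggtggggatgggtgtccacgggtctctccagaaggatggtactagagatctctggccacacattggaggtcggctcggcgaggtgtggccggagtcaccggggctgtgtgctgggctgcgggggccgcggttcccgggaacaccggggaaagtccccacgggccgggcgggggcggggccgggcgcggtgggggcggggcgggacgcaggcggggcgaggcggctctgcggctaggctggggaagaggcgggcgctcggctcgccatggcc
Jak2, chr19:29251553-29251852, plus strand: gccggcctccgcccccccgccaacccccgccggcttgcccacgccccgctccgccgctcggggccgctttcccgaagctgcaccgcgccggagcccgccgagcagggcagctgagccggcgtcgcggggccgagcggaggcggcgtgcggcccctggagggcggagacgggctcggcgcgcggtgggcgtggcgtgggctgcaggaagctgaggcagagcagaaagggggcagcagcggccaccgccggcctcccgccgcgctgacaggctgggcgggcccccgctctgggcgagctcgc

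Promoters on chr18 were left out of the search, and 9 of the 10 genes had a RefSeq promoter in the searched set, without *Ptpn2*. The GAS match TTCCTGGAA of *Ifnar2* began at position -214 from the start, and the match TTCACGGAA of *Ifnar1* began at -5. No other member promoter held a GAS match, and 8.30% of the 32851 searched promoters of this length did. The shares and the median of all promoters given below are over this searched set. The ISRE core GAAANNGAA, searched on both strands like the motifs below, was found in *Jak3* alone and in 8.56% of all promoters. The GC box GGGCGG was in all 9 promoters and in 35.7% of all, the CCAAT box in those of *Jak1*, *Tyk2*, *Ifngr1* and *Ifngr2* and in 37.4% of all, and TATAAA in none of the 9 and in 13.6% of all. The ETS motif CCGGAAG was found in *Ifnar1* alone and in 8.86% of all promoters. No member promoter held the antioxidant response element TGACNNNGC (12.4% of all), the heat-shock pair GAANNTTC (7.86%), the ATF4 motif TGATGCAA (0.895%) or the AP-1 motif TGANTCA (7.81%). The printed GAS matches overlapped no other match. The 4 printed promoters held 57.0% (*Ifnar2*), 68.3% (*Ifnar1*), 74.3% (*Ifngr2*) and 81.0% (*Jak2*) G and C bases, against a median of 52.7% over all promoters. A match is a stretch of letters and shows no binding.

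*Ifnar1*, the chain that brings TYK2 to the type I receptor, was lower on every inhibitor array. Its brightest probe read 1902 units on the DMSO array and 713 (MG132), 759 (epoxomicin) and 1173 units (ONX0914) on the others. After scaling, the inhibitor arrays lay below DMSO, with MG132 and epoxomicin lowest. The log2 differences from DMSO were -1.23, -1.35 and -0.66 with MG132, epoxomicin and ONX0914, or 2.34-, 2.55- and 1.58-fold lower, each with a software error of 0.20. The gene has 2 more probes. One read 401, 145, 155 and 278 units and the other 105, 38.4, 36.4 and 82.7 units on the DMSO, MG132, epoxomicin and ONX0914 arrays. All 3 probes were lower with each inhibitor, by log2 differences of -1.28 to -1.23 with MG132, -1.55 to -1.35 with epoxomicin and -0.66 to -0.30 with ONX0914. On the MG132 array *Ifnar1* was the 266th lowest of 13769 genes by its difference.

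*Ifnar2*, the other chain of the same receptor, read 9856 units with DMSO against 7438, 8357 and 9833 units with MG132, epoxomicin and ONX0914. The ONX0914 and DMSO arrays were close together and the other arrays were slightly lower. Its log2 differences were -0.22, -0.26 and 0.034 in that order, and that with ONX0914 was within the software error of 0.20. The chains of the type I receptor thus differed from each other in their response. A ratio of genes on the same arrays does not change when all signals of an array are shifted by the same factor. The difference of the brightest *Ifnar1* probe minus that of *Ifnar2* was therefore also taken. It was -1.01, -1.09 and -0.69 with a software error of 0.29 on the log2 scale. That is 2.01-, 2.12- and 1.62-fold less *Ifnar1* relative to *Ifnar2* than with DMSO. With ONX0914 the dimmer *Ifnar1* probes lay nearer DMSO (-0.49 and -0.30), so the last value would be smaller by them.

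Both chains of the IFN-γ receptor were lower. *Ifngr1*, which binds the ligand, read 3854 units on the DMSO array and 1529 (MG132), 1783 (epoxomicin) and 2331 units (ONX0914) on the others. The MG132 and epoxomicin arrays were lowest and differed from each other by 0.010 after scaling. The log2 differences from DMSO were -1.15, -1.14 and -0.69, or 2.21-, 2.20- and 1.61-fold lower, with an error of 0.20. With *Hprt* as the only scale they were -0.94 with MG132 and -0.97 with epoxomicin, just under 2-fold. *Ifngr2*, the chain that carries JAK2, read 4407 units with DMSO against 1181, 922 and 2527 units with MG132, epoxomicin and ONX0914. It had the largest differences of the 10 genes with each inhibitor. They were -1.71, -2.28 and -0.77 on the log2 scale, or 3.28-, 4.86- and 1.70-fold lower, with an error of 0.20. By its difference it was the 84th lowest of 13769 genes with MG132, the 39th lowest of 13869 with epoxomicin and the 374th lowest of 13793 with ONX0914. *Ifngr2* was lower than *Ifngr1* in its response by 0.57 with MG132 and 1.14 with epoxomicin, with an error of 0.29, and by 0.077 with ONX0914, which is within that error. The median over the 4 receptor chains was -1.19, -1.24 and -0.67.

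**Figure D2:**
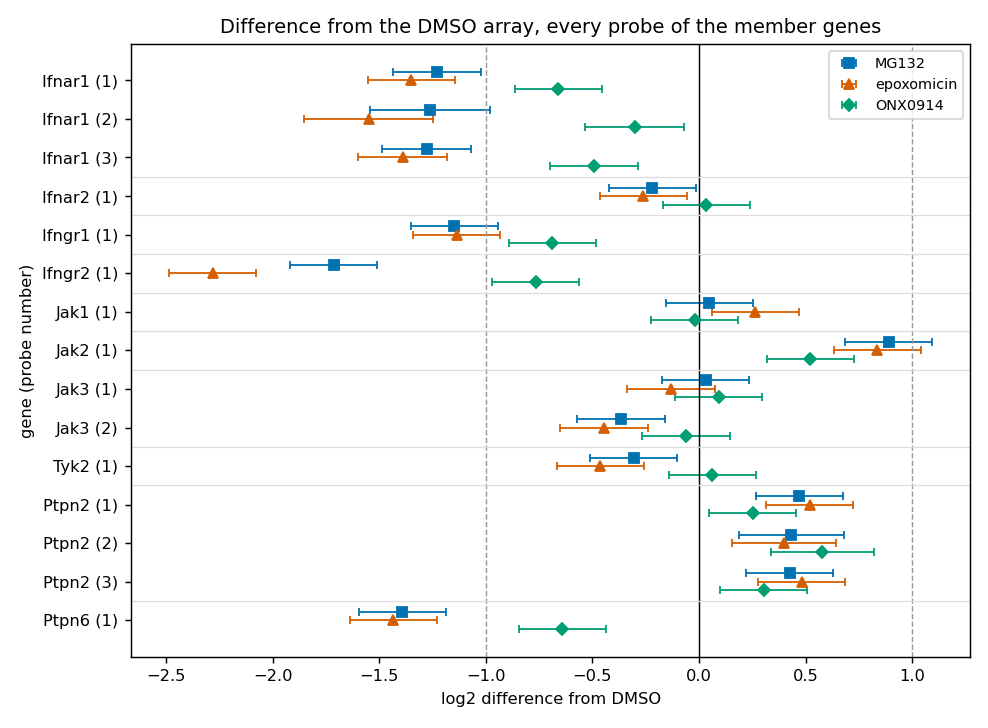
Log2 difference from the DMSO array for each of the 15 probes of the 10 genes, with the software error of the difference as bars and dashed lines at 2-fold; the number after a gene counts its probes, 1 being the probe that represents it. All 3 *Ifnar1* probes and the *Ifngr1*, *Ifngr2* and *Ptpn6* probes lie left of the lower dashed line with MG132 and epoxomicin, and all 3 *Ptpn2* probes lie right of 0.

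The receptor genes *Ifnar2*, *Ifnar1* and *Ifngr2* stand side by side on mouse chromosome 16, with *Il10rb* between the type I receptor chains. *Il10rb* encodes a receptor chain shared by IL-10 and type III interferon. Its signal was 2050.2 units on the DMSO array and 870.5 (MG132), 907 (epoxomicin) and 1696 units (ONX0914) on the others, and its log2 differences were -1.05, -1.20 and -0.24. *Tmem50b*, next to *Ifngr2* on the far side, had differences of -1.11, -1.04 and -0.42, from 5695 units with DMSO. *Gart*, an enzyme of purine synthesis beyond it, had -0.33, -0.49 and -0.052. *Dnajc28* between them was not well above background on any array. On the other side of *Ifnar2*, *Olig2* was not well above background on any array, and *Olig1* was with epoxomicin alone (32.4 units), where its log2 difference was at least 1.11. With MG132 and epoxomicin *Il10rb*, *Ifnar1*, *Ifngr2* and *Tmem50b* were at least 2-fold lower, and *Ifnar2* and *Gart* were not. The order was taken from RefSeq on GRCm38.p6.

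**Figure D3:**
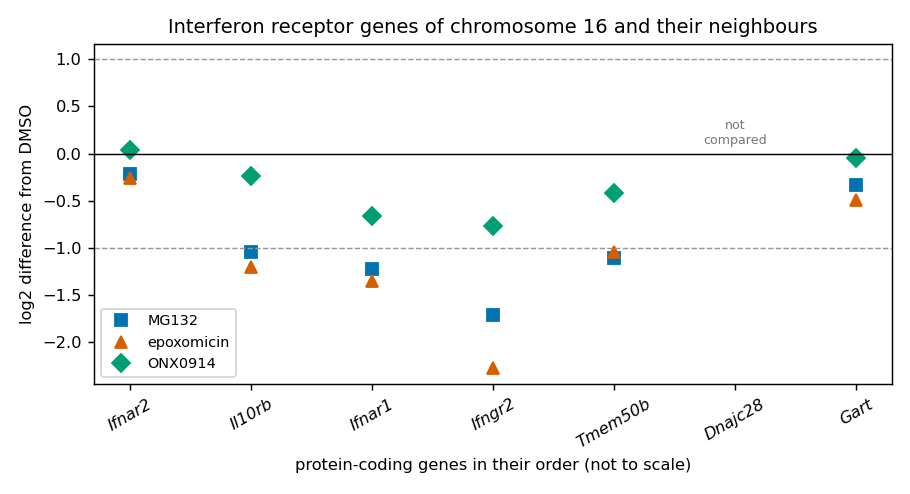
Log2 difference from DMSO for the interferon receptor genes of chromosome 16 and the genes that follow *Ifngr2*, in their order along the chromosome (distances not to scale, dashed lines at 2-fold, 1 array per condition). With MG132 and epoxomicin *Il10rb*, *Ifnar1*, *Ifngr2* and *Tmem50b* lie below -1, and *Ifnar2* and *Gart* lie above it.

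Of the kinases, *Jak1*, which serves both interferon receptors, read 8009.9 units with DMSO against 7270.3, 9775 and 7697 units with MG132, epoxomicin and ONX0914. Epoxomicin was the highest and the other arrays were close together. Its log2 differences were 0.047, 0.26 and -0.021, of which the one with epoxomicin was beyond the software error of 0.20. The sign with MG132 and with ONX0914 turned in 2 of 12 other ways of processing. *Tyk2*, the partner of *Ifnar1*, read 1575 units on the DMSO array and 1119 (MG132), 1163 (epoxomicin) and 1604 units (ONX0914) on the others. Its differences were -0.31, -0.46 and 0.063, with the MG132 and epoxomicin arrays below the other arrays by more than the software error of 0.20. *Tyk2* minus *Jak1* was -0.35, -0.73 and 0.083, with an error of 0.29.

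*Jak2*, the kinase bound to *Ifngr2*, was higher on every inhibitor array. It read 2535 units with DMSO against 4125, 4605 and 3544 units with MG132, epoxomicin and ONX0914, so that DMSO was the lowest array. The log2 differences were 0.89, 0.84 and 0.52, or 1.85-, 1.79- and 1.43-fold higher, with an error of 0.20. By its difference *Jak2* was the 1206th highest of 13769 genes with MG132, and 8.75% of genes were higher. With *Hprt* as the only scale it passed 2-fold with MG132 (1.09) and epoxomicin (1.01). Relative to *Jak1* it was higher by 0.84, 0.57 and 0.54, with an error of 0.29.

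The brighter of the *Jak3* probes read 1230.3 units on the DMSO array and 1104 (MG132), 1142 (epoxomicin) and 1278 units (ONX0914) on the others, and its differences of 0.030, -0.13 and 0.092 were within the software error of 0.20. The second probe read 1032, 703, 771 and 964 units and gave -0.37, -0.45 and -0.061. The *Jak3* probes therefore disagreed with MG132, and no direction is given for this gene. The median over the 4 kinases was 0.038, 0.065 and 0.077.

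The phosphatases went in opposite directions. *Ptpn6*, the SHP-1 phosphatase of blood cells, read 37194 units with DMSO against 12449, 14014 and 23257 units with MG132, epoxomicin and ONX0914. ONX0914 lay between DMSO and the other inhibitors. The log2 differences were -1.39, -1.43 and -0.64, or 2.63-, 2.70- and 1.56-fold lower, with an error of 0.20. *Ptpn2* read 4092 units on the DMSO array and 4977 (MG132), 5967 (epoxomicin) and 4746 units (ONX0914) on the others. DMSO was the lowest array after scaling, and the log2 differences were 0.47, 0.52 and 0.25, or 1.38-, 1.43- and 1.19-fold higher. Its dimmer probes read 745, 879, 1058 and 896 units and 57.6, 68.3, 77.2 and 83.8 units. All 3 *Ptpn2* probes were higher with each inhibitor, by 0.42 to 0.47 with MG132, 0.40 to 0.52 with epoxomicin and 0.25 to 0.58 with ONX0914. *Ptpn6* minus *Ptpn2* was -1.86, -1.95 and -0.89, with an error of 0.29.

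**Figure D4:**
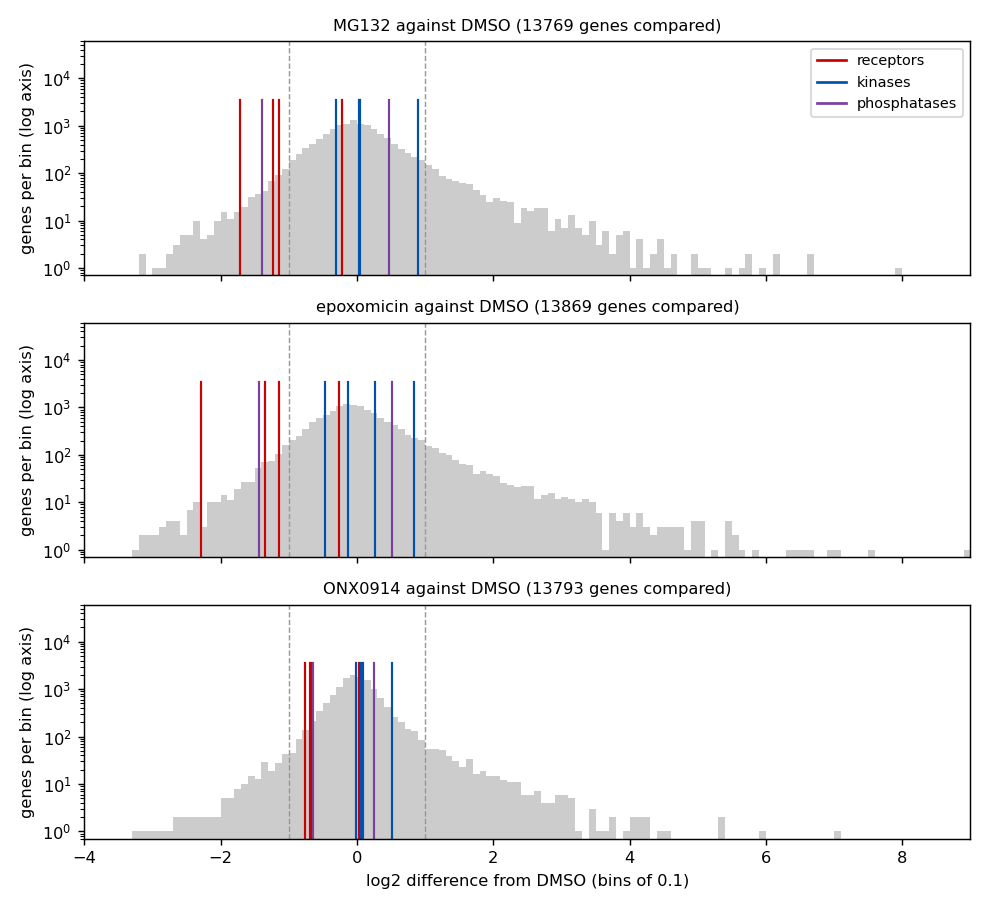
Number of genes per 0.1 of log2 difference from DMSO (grey, log axis) with the 10 members as lines, coloured by role, and dashed lines at 2-fold, in 1 panel per inhibitor. With MG132 and epoxomicin 3 receptor lines and the *Ptpn6* line lie left of the lower dashed line, and with ONX0914 no member line lies outside the dashed lines.

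The inhibitors were compared at the same dose and time, without a test and in 3 pairs, by the probe that represents each gene. MG132 and epoxomicin differed by less than the software error for all members other than *Ifngr2* and *Jak1*. *Ifngr2* was lower with epoxomicin than with MG132 by a log2 difference of -0.57, and *Jak1* was higher by 0.22, each with an error of 0.20. The epoxyketones, epoxomicin and ONX0914, differed for all 10 genes by more than that error on these probes. The share of all genes beyond their error was not taken for any pair, so these counts show nothing particular to the group. For *Ptpn2* the difference between the epoxyketones was not beyond the error on its dimmer probes. Their ONX0914 minus epoxomicin differences were 0.18 and -0.18, within errors of 0.24 and 0.20, against -0.27 for the brightest probe. *Ifngr2* was 2.86-fold higher with ONX0914 than with epoxomicin (1.52 on the log2 scale), *Ptpn6* was higher by 0.79, *Ifnar1* by 0.69 and *Ifngr1* by 0.45, and *Jak2* was lower, with a difference of -0.32. ONX0914 minus MG132 was 0.95 for *Ifngr2*, 0.75 for *Ptpn6*, 0.57 for *Ifnar1*, 0.46 for *Ifngr1* and -0.37 for *Jak2*. It was within the error for *Jak1* and for the brighter *Jak3* probe, while the other *Jak3* probe gave 0.31. The scaled ONX0914 signal lay between those of DMSO and MG132 for 10 of the 15 probes. Probes of the same gene are not independent, and the share over all probes was not taken, so this count is a description only. An interval for these differences cannot be given from 1 array each.

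The steps downstream of the kinases were described from gene lists, each as the number of its genes at least 2-fold higher or lower beside the shares of all genes given above. These lists were chosen with results of these arrays known, so their counts are no independent evidence. Among the STAT factors and *Irf9*, *Stat2* and *Irf9*, which act in the response to type I interferon, were higher with MG132 and epoxomicin, and *Stat2* also with ONX0914. *Stat2* read 4617 units with DMSO and 20141, 25532 and 12638 with MG132, epoxomicin and ONX0914, with differences of 2.31, 2.44 and 1.49. *Irf9* had differences of 1.25, 1.55 and 0.83. *Stat5a* was lower with MG132 (-1.04), and *Stat4* was not well above background on any array.

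Several genes that damp this signaling were higher. Of 13 feedback inhibitors compared, 6 were higher and none lower with MG132, 6 were higher and *Pias4* was lower with epoxomicin, and 4 were higher with ONX0914. *Socs1*, which blocks the Janus kinases, read 316 units with DMSO and 2311, 3236 and 6654 with MG132, epoxomicin and ONX0914, and its differences were 3.06, 3.33 and 4.43. *Socs3* had 2.26, 2.76 and 3.09, with ONX0914 highest for both genes. *Cish* had 3.85, 4.15 and 2.95, and *Usp18*, which holds back JAK1 at the IFNAR2 chain, had 2.94, 3.20 and 2.07. *Socs2* and *Socs7* passed 2-fold with MG132 and epoxomicin. The median of the list was 0.89, 0.87 and 0.26. None of the 4 other phosphatases known to act on this pathway (*Ptpn1*, *Ptpn11*, *Ptprc* and *Ptprj*) passed 2-fold in either direction, with differences from -0.50 to 0.61. The same held for *Btrc*, *Fbxw11*, *Prkd2* and *Csnk1a1*, genes for turnover of the IFNAR1 protein, with differences from -0.39 to 0.61.

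The other receptors that signal through Janus kinases give the frame for the receptor chains. Of 30 that were compared, *Il2ra* and *Il7r* were at least 2-fold higher and *Il10rb* and *Lifr* lower with MG132. With epoxomicin the same genes and, among the lower ones, *Il27ra* passed, and with ONX0914 *Il2ra* was higher and *Lifr* lower. *Il2ra* was not well above background with DMSO, and as a bound it was at least 17.9-, 33.2- and 8.69-fold higher. The median was -0.0030, -0.14 and 0.022, beside -1.19, -1.24 and -0.67 for the 4 interferon receptor chains. *Il2rg*, the common γ chain that binds JAK3, read 4697, 3457, 3824 and 4874 units on the DMSO, MG132, epoxomicin and ONX0914 arrays, with differences of -0.26, -0.32 and 0.090. *Ifnlr1*, the other chain of the type III interferon receptor, was well above background with DMSO alone, at 27.9 units.

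Most of the listed genes that interferons induce were at least 2-fold higher. Of 20 genes of the IFN-α/β response, 18 were at least 2-fold higher with MG132, 19 with epoxomicin and 13 with ONX0914, with medians of 2.47, 2.70 and 1.76, and none was lower. *Rsad2*, which encodes the antiviral protein viperin, read 660 units with DMSO and 39790.2, 67508 and 25519.8 units with the inhibitors. *Ifit3*, an antiviral gene, had differences of 4.22, 4.67 and 3.66. Of 16 genes of the IFN-γ response, 13, 13 and 12 were higher, with medians of 2.85, 3.23 and 2.44, and none was lower. *Cxcl10*, a CXCR3 ligand, had differences of 5.50, 5.87 and 5.33, and *Irf1* had 2.51, 2.80 and 2.63. *Ciita*, *Nos2* and *Psmb9* of the IFN-γ list were under 2-fold with all inhibitors. *Irf8* was under it with ONX0914 (0.79). Over all 13462 genes that were compared with all 3 inhibitors, 272 were higher and 136 lower by 2-fold with each.

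**Figure D5:**
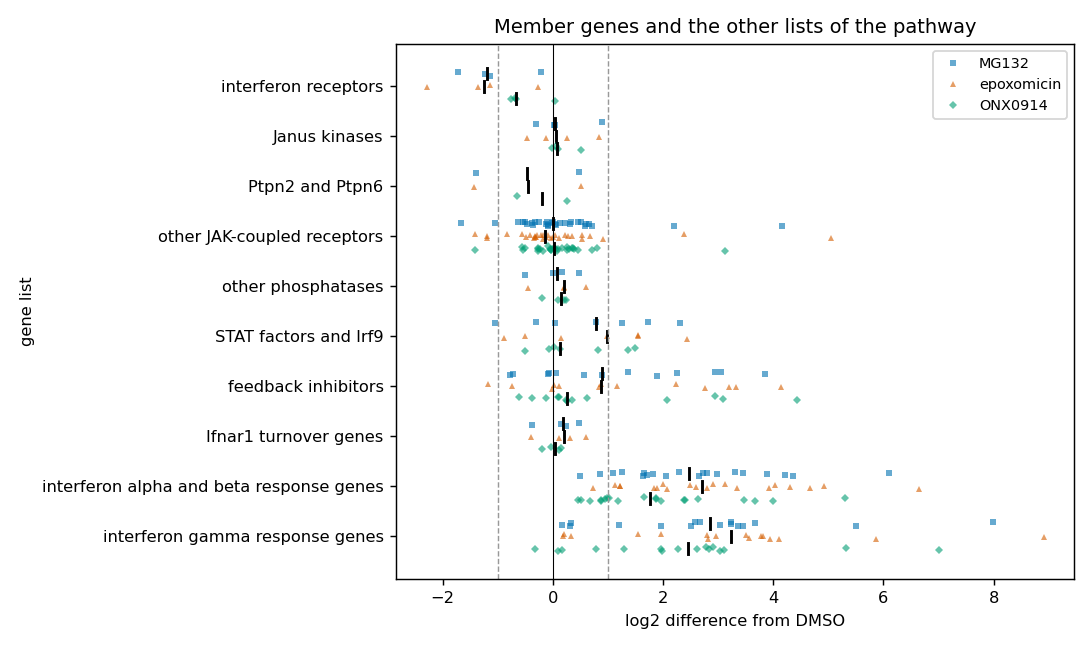
Log2 difference from DMSO for each gene of the pathway lists, by inhibitor, with a black bar at the median of the list and dashed lines at 2-fold (1 array per condition). The receptor medians (-1.19, -1.24 and -0.67) lie left of 0, the kinase medians lie near 0, and the medians of the interferon response lists lie above 1.7.

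The genes whose 3 differences were most like those of the 4 lower members were found among 12730 genes well above background on all arrays, by the straight-line distance over the 3 log2 differences. For *Ifnar1* they were *Ang4* (distance 0.053), *Erlin2* (0.054) and *Sash3* (0.068). For *Ifngr1* they were *Tmem273* (0.047), *Ing1* (0.049) and *1810024B03Rik* (0.055), and for *Ptpn6* they were *Vegfb* (0.053), *B4gat1* (0.090) and *Btd* (0.094). *Ifngr2* had no gene as close, and the nearest were *Asb2* (0.28), *Cstad* (0.30) and *Pira2* (0.34). The 3 differences share the DMSO array, and nearness over 3 points is a description only.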

How the data were processed

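The authors deposited single-color (Cy3) Agilent scanner output, made with Feature Extraction 10.7.1.1, and a table of log2 values. The deposited intensity of each spot had its background subtracted within the array and was not scaled between arrays. The deposited log2 table holds each probe relative to its median over the arrays, and served as an alternative. The methods name a human array, but the file headers describe a mouse design on mm9. Names came from RefSeq accessions of mouse genes (GRCm38.p6), which covered 26581 probes (67.4%), and coordinates on mm9 were not used. All arrays lay on 1 slide.

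Control and outlier spots were left out, log2 signals were shifted by the 75th percentile of each array, and repeated spots were averaged. The probe with the highest mean represented a gene. A gene was compared if either array of the comparison had it well above background, with a bound in place of a dim signal, and was called at a 2-fold difference. Per array, 60.3% to 63.1% of 43020 spots were well above background. With 1 array per condition no test was run. Members, lists and thresholds were chosen with earlier results of these data known. The genes named are the members, their neighbours on chromosome 16, the 3 genes most like each member that was at least 2-fold lower, and members of the lists, of which some are not reported here. The calculations were tested on simulated data. The 12 alternatives for single genes were 5 scalings, 2 normexp background corrections (offset 50, on the median pixel brightness), the deposited log2 table, 2 choices of probe, outlier spots kept, and dim signals without bounds. Normexp and quantile normalization used limma 3.58.1 (R 4.3.3), and everything else Python 3.11.15 (numpy 2.4.6, pandas 2.3.3, matplotlib 3.10.9).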

Additional observations from a re-analysis of the deposited data

How the results depend on the processing

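No direction of a difference of at least 2-fold turned under any alternative run, and 24 of the 30 differences of the 10 genes kept their sign in all 12 alternatives. The exceptions were *Jak1* with MG132 and ONX0914, *Jak3* with each inhibitor and *Ifnar2* with ONX0914, all small. Of 360 recomputed values, 75 moved by at least 0.0870 on the log2 scale. The median of the 10 differences with MG132, -0.26, was -0.36 with arrays set to equal medians, -0.45 without scaling and -0.061 with *Hprt* as the only scale. With epoxomicin it was -0.36, and it was -0.19 with *Hprt* and -0.45 with the dimmest detected probe of each gene. The number of members at least 2-fold higher went from 0 to 1 (*Jak2*) with *Hprt*, with MG132 and with epoxomicin. A 1.5-fold threshold also gave 1 for both, and 4 lower members with ONX0914 in place of 0, *Ifnar1* among them by its brightest probe alone. At 4-fold, 0 members were lower with MG132 and 1 (*Ifngr2*) with epoxomicin, in place of 4. These changes follow from the threshold, scale or probe chosen.

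The median of all genes with MG132, epoxomicin and ONX0914 was -0.27, -0.30 and -0.16 with normexp, -0.12, -0.11 and -0.013 at equal medians, and 0.19, 0.13 and 0.024 with *Hprt*. With MG132 it was -0.20 without scaling. The share of all genes at least 2-fold lower was 18.2%, 21.9% and 19.5% with normexp in place of 3.65%, 4.49% and 1.41%, the share higher was 3.44%, 4.16% and 1.40% in place of 7.24%, 8.41% and 3.27%, and of all calls 15.9%, 15.98% and 6.72% were higher. With outlier spots left out of that fit, 2.09%, 2.74% and 0.540% of genes were lower and 4.43%, 5.03% and 1.57% higher. The cause was not tested. Without scaling 6.50% were lower with MG132, and with *Hprt* 2.11% with MG132 and 2.78% with epoxomicin. With ONX0914 the lower share was 2.56% in the deposited log2 table, 2.49% without bounds, 3.14% without a filter on dim probes, 0.848% with the dimmest detected probe and 0.801% among genes above background on all arrays, and 59.2% of calls were higher in that table. No paired analysis was possible because each condition has 1 array, and for the same reason no array could be left out. All member probes were well above background, so signal did not limit their detection.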
